A study of Mus musculus with 35 samples.

Results

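The comparison described here is that of injured mice given PBS, the saline vehicle, with mice that had sham surgery, 1 week after the injury. Its members were taken from the labels: 5 libraries labelled PBS at 1 week (PBS mice 0 to 4) and 5 labelled Sham (Sham mice 0 to 4), 10 of the 34 libraries of the series that had values. In the whole study, a closed head injury (CHI) was followed by mesenchymal stromal cells (MSCs), IL-4-expressing MSCs or PBS, and RNA of the brain around the treatment site was sequenced at 1 and 3 weeks post injury (wpi). All 10 mice were male C57BL/6NCrl animals aged 8 to 9 weeks at the start. PBS mice were struck on the closed skull, received PBS into the left hippocampus on day 5 and were collected 2 days later. Sham mice went through the surgical steps without the impact and had no injection, so that the effects of the impact and of the second surgery with its needle track cannot be told apart. Sham mice 0 and 1 were collected at week 1 and Sham mice 2, 3 and 4 at week 3, whereas all 5 PBS mice were collected at week 1. The labels name the tissue left cortex, while the methods describe a slab of brain around the injection site, which can hold cortex, hippocampus and the tissue below.

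A blow to the brain tears membranes and small vessels, and microglia, the resident macrophages, and astrocytes, the supporting glia that also seal off a lesion, become reactive within days. Reactive astrocytes build up intermediate filaments and secrete acute phase proteins, while reactive microglia divide, engulf debris and switch on lysosomal, lipid and antigen presentation genes. Monocytes from the blood can join them, and interferon signalling often accompanies the response. Neurons in the surrounding tissue may lose synapses, fire less or die, and their activity is read out by immediate early genes, which are transcribed within minutes of firing.

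Values are given in CPM, the estimated counts of a gene scaled to the total of its library. The totals were 30783451 to 41554249 counts, and 3 counts in 1 library equal 0.0722 to 0.0975 CPM. Differences are given as log2FC, the log2 fold change of PBS over Sham with its SE, from edgeR's quasi-likelihood test in 1 fit over all groups, with Benjamini-Hochberg adjustment over the 17131 genes tested. A gene was called where the adjusted p was under 0.05. Within groups the libraries were alike, with r of 0.985 to 0.993 between log2 CPM values of Sham mice and 0.989 to 0.993 between those of PBS mice, and no pair of libraries agreed within sampling noise. On the first principal component, which held 35.5% of the variance, Sham mice lay between -29.9 and -10.6 and PBS mice between 12.6 and 33.5. The second component (20.7%) set the Sham mice of week 1 (23.3 and 27.9) apart from those of week 3 (-27.3 to -16.4). Striatal genes moved along with this split: their mean log2 CPM was 0.96 higher in PBS than in Sham mice of week 1 and fell short of Sham mice of week 3 by 1.29, with 0 of 13 genes called. Genes of the hippocampus, thalamus and choroid plexus had 0 called members as well (0 of 15, 0 of 12 and 0 of 16). Here too the Sham weeks differed. PBS minus Sham in mean log2 CPM was 1.16 for week 1 and 0.043 for week 3 in choroid plexus genes. In thalamic genes it was 0.684 and -0.156, and in hippocampal genes -0.189 and 0.224. Against the Sham mice of week 1 alone 2 choroid plexus genes were higher, and against those of week 3 alone 4 striatal genes were lower. With both weeks pooled, 0 calls do not show that the regions were matched. At an unadjusted p under 0.05 the striatal list had 4 members and the hippocampal list 1, the other 2 lists had 0, and DESeq2 called 0 in each of the 4. Of the other markers, 1 of 14 meningeal genes, Slc13a3, was higher, while 2 were lower against the Sham mice of week 1 alone. PBS minus Sham in mean log2 CPM of meningeal genes was -0.33 for week 1 and 0.303 for week 3. The neuronal, astrocytic and oligodendrocytic defining markers were present at high levels in every library. A pair of libraries stood apart from their groups in the direction of the injury response. Sham mouse 4 was the highest of the Sham mice for myeloid, lysosomal, cell cycle and iron genes. PBS mouse 2 was the highest of the PBS mice for chemokines and Fc receptors. Calls that were lost without this pair of mice are given beside the results.

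At 1 wpi, 1495 genes (8.73% of those tested) were higher in PBS than in Sham and 862 (5.03%) were lower. The sides differed in size. Among the higher genes the median log2 fold change was 0.57, 407 were past 2-fold, 119 past 4-fold and 46 past 8-fold. Among the lower genes the median was -0.18, 782 of 862 (90.7%) fell by less than 25% of their Sham level, and only 7 were past 2-fold. The higher genes were scarce in Sham brain, with a median of 5.62 CPM, and the lower genes abundant, with a median of 88.4 CPM, against 17.9 CPM for all genes tested. Over all genes tested the median log2 fold change was -0.0054. All 5 PBS values lay above all 5 Sham values for 1014 of the higher genes and below them for 463 of the lower genes. Of all genes tested, 10.2% were separated in this way, 6.54% with PBS above and 3.63% with PBS below. With libraries scaled by their totals alone, the counts were 1873 higher and 383 lower, so that the share of calls that were higher was 83.0% in place of 63.4%, and the median over all genes tested moved to 0.032. The count of lower genes rested in part on single mice, with 456 lower without PBS mouse 1 and 569 without Sham mouse 2, while 1159 to 1488 genes were higher whichever mouse was left out. Of 199 called genes chosen by the naming rules, 4 to 26 were lost when a single mouse was left out, the most without PBS mouse 1, and 64 were lost against the Sham mice of week 1 alone. All p-values measure the spread between mice of this series only, estimated over all groups in the fit. With only these 10 mice in the fit, 1242 genes were higher and 570 lower.

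**Figure D1:**
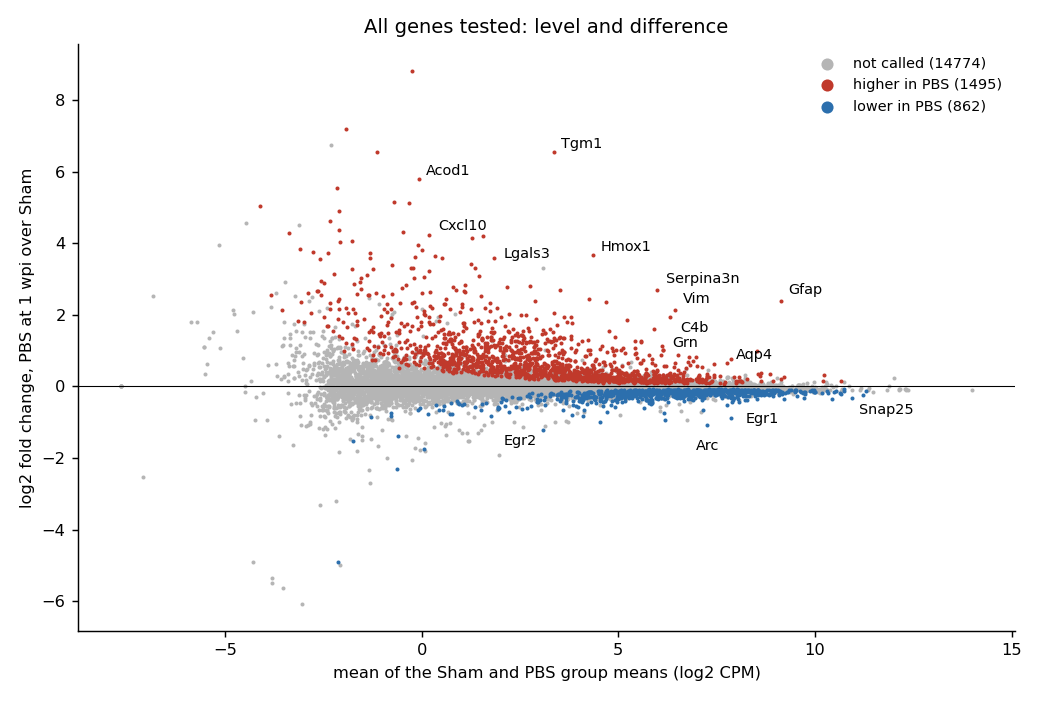
Each point is 1 of the 17131 genes tested, with its mean level over the 10 mice in log2 CPM on the horizontal axis and the log2 fold change of PBS at 1 wpi over Sham on the vertical axis, in colour where the adjusted p is under 0.05. The 1495 higher genes spread upward from low levels and 407 of them pass 2-fold, whereas most of the 862 lower genes lie close to 0 at higher levels.

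Among genes whose groups did not overlap and whose mean in the higher group reached 1 CPM, Tgm1, the transglutaminase that crosslinks proteins at the cell edge and is a marker of reactive astrocytes, had the greatest rise. Tgm1 (ENSMUSG00000022218, chr14:55700009-55713926, minus strand, GRCm38) stood at 0.143, 0.172, 0.268, 0.247 and 0.247 CPM in Sham mice 0 to 4 and at 8.43, 31, 21.8, 22.5 and 17.9 CPM in PBS mice 0 to 4. Every PBS mouse was far above every Sham mouse, and mouse 0 was the lowest of the PBS group. The log2FC was 6.56 ± 0.46, and the adjusted p, 7.99e-11, was the smallest of all genes. Hmox1 (ENSMUSG00000005413, chr8:75093621-75100589, plus strand, GRCm38) encodes heme oxygenase 1, which breaks down heme from blood and is a standard sign of oxidative stress. It was at 2.23, 2.46, 3.05, 3.31 and 4.11 CPM in Sham and at 21.8, 48.6, 48.5, 59.9 and 12.6 CPM in PBS mice (log2FC 3.67 ± 0.36, adjusted p = 2.04e-08). Its groups were also apart, with PBS mouse 4 the lowest and PBS mouse 3 the highest.

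The other genes with the greatest rises were those of activated phagocytes and of the signals that call them in. Cst7, cystatin F, an inhibitor of lysosomal proteases and a marker of disease-associated microglia, rose from 0.0619 to 0.185 CPM in Sham to 1.26 to 2.63 CPM in PBS mice (log2FC 3.82 ± 0.47, adjusted p = 7.28e-07). Lgals3, the secreted lectin galectin-3 of phagocytes, rose from 0.302 to 0.928 to 2.81 to 10.3 CPM (log2FC 3.58 ± 0.46, adjusted p = 1.41e-06). Msr1, a scavenger receptor for modified lipoproteins and debris, was at 0.101 to 0.345 CPM in Sham mice and at 1.33 to 4.9 CPM in PBS mice (log2FC 3.58 ± 0.41, adjusted p = 2.61e-07). Ptx3, a soluble pattern recognition protein, was at 0.229, 0.345, 0.268, 0.186 and 0.247 CPM in Sham and 2, 4.06, 8.1, 3.52 and 5.45 CPM in PBS mice (log2FC 4.15 ± 0.54, adjusted p = 1.66e-06). In each of these 4 genes the lowest PBS mouse stood well above the highest Sham mouse, although the PBS mice themselves differed by 2-fold or more. On myeloid cells, the C-type lectin Clec4d (log2FC 5.16, adjusted p = 0.00134), the inhibitory receptor Lilr4b (log2FC 3.94, adjusted p = 0.00067) and the hydroxycarboxylic acid receptor Hcar2 (log2FC 5.11, adjusted p = 0.00147) also rose. So did Gm49339 (log2FC 4.2, adjusted p = 1.53e-05), for which no function is given here.

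A few of the raised genes were highest in PBS mouse 2, and for some of them the call rested on that mouse. Acod1, which makes the antimicrobial metabolite itaconate, was at 0, 0, 0.101, 0 and 0.0618 CPM in Sham and 0.222, 0.433, 8.32, 0.22 and 0.176 CPM in PBS mice, so that PBS mouse 2 alone carried most of its log2 fold change of 5.8 (adjusted p = 0.00936). Arg1, arginase 1, a marker of alternatively activated macrophages, was at 0.229, 0.295, 0.101, 0.186 and 0.0926 CPM in Sham and 0.317, 2.98, 6.68, 1.26 and 0.616 CPM in PBS mice, with PBS mouse 0 only slightly above the Sham mice (log2FC 3.63 ± 0.85, adjusted p = 0.00315). Cxcl2, a chemokine that draws neutrophils, had no counts in any Sham mouse and was at 0, 0.577, 7.68, 0.157 and 0.0293 CPM in the PBS mice, with PBS mouse 0 also at 0 and mouse 2 far above the rest (adjusted p = 0.0204). Without PBS mouse 2 and Sham mouse 4 the adjusted p was 0.266 for Acod1, 0.0553 for Arg1 and 0.304 for Cxcl2. Without PBS mouse 2 alone, Acod1 and Cxcl2 were not called and Arg1 stayed called.

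**Figure D2:**
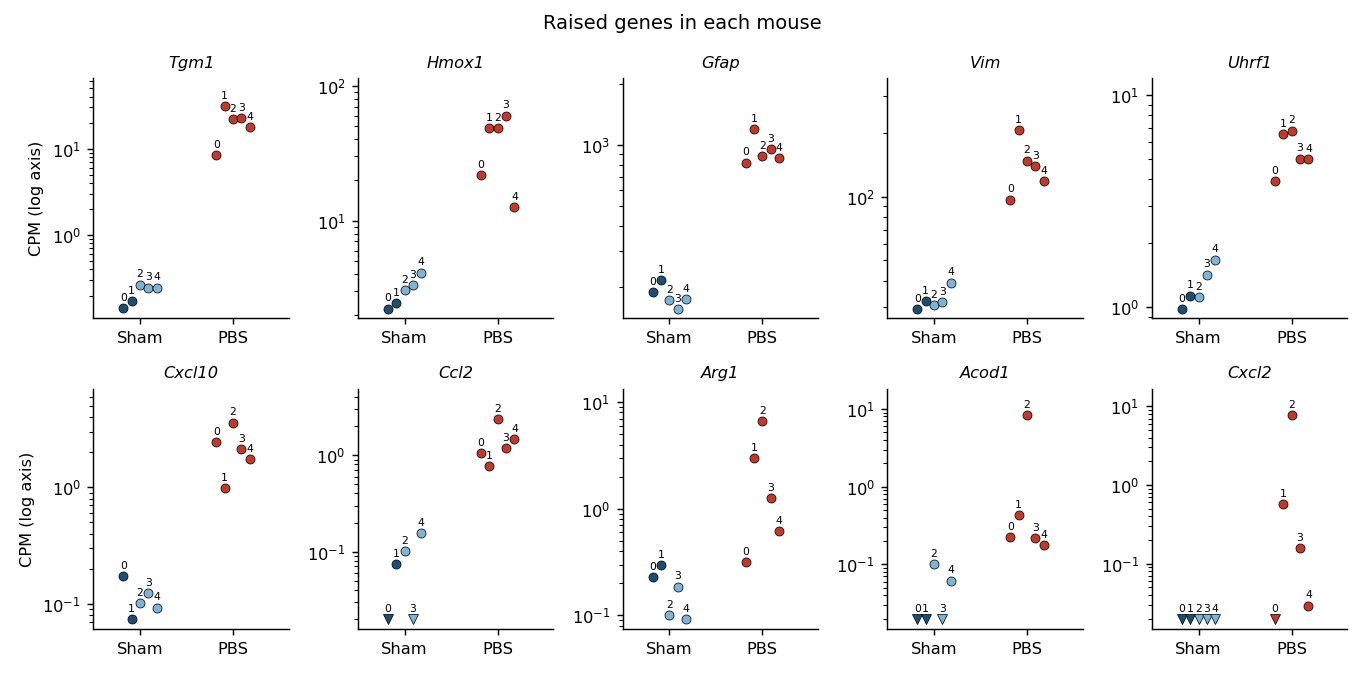
CPM on a log axis for 10 genes raised at 1 wpi, with each mouse drawn as a point marked by its replicate number (dark blue, Sham of week 1; light blue, Sham of week 3; red, PBS at 1 wpi) and triangles for mice without a count. PBS values lie above all Sham values for genes such as Tgm1 and Hmox1, and a single PBS mouse, number 2, lies far above the others for Acod1.

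After Tgm1, the smallest adjusted p-values belonged to genes with smaller folds, several of them abundant genes of astrocytes and phagocytes. Gfap, the intermediate filament protein of astrocytes, was at 189.7, 216, 173, 156 and 175 CPM in Sham and 822, 1203, 885, 954 and 860.1 CPM in PBS mice (log2FC 2.38 ± 0.18, adjusted p = 5.53e-10). Vim, vimentin, its filament partner, rose from 29.3 to 39.2 to 96.9 to 206 CPM (log2FC 2.13 ± 0.18, adjusted p = 1.83e-09). Neither gene showed any overlap, and PBS mouse 1 was the highest for both. C4b, complement component 4, rose from 26.8 to 41.6 to 114 to 142 CPM (log2FC 1.93 ± 0.18, adjusted p = 1.32e-08), with all 5 PBS mice within a narrow range. Grn, progranulin, a lysosomal protein of microglia, was at 44.7, 45.4, 44.2, 43.8 and 57.2 CPM in Sham and 90.6, 106, 99.7, 95 and 82.6 CPM in PBS mice (log2FC 1.01 ± 0.082, adjusted p = 6.65e-10). Sham mouse 4 was raised among the Sham mice and still below every PBS mouse. Uhrf1, which maintains DNA methylation when cells divide (log2FC 2.11, adjusted p = 6.65e-10), and the small heat shock protein Hspb6 (log2FC 1.26, adjusted p = 7.07e-09) were also among the 10 smallest adjusted p-values. The endosomal receptor Tlr13 (log2FC 2.01, adjusted p = 4.91e-09), the chemerin receptor Cmklr1 (log2FC 1.05, adjusted p = 9.71e-09) and the Toll-like receptor accessory protein Ly86 (log2FC 1.81, adjusted p = 7.07e-09) completed them.

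Astrocyte genes rose according to state. Of 13 genes shared by reactive astrocytes, 10 rose and 0 fell, with a median log2 fold change of 2.13 against -0.0054 over all genes tested. Serpina3n, a secreted inhibitor of serine proteases, was at 20.6, 18.2, 15.8, 13.9 and 15.3 CPM in Sham and 70.9, 182, 103, 103 and 86.5 CPM in PBS mice (log2FC 2.7 ± 0.27, adjusted p = 3.11e-08). Timp1, an inhibitor of matrix metalloproteinases, rose from 0.935 to 1.45 to 3.55 to 10.7 CPM (log2FC 2.78 ± 0.33, adjusted p = 2.85e-07). Steap4, a metalloreductase of iron and copper, rose from 0.566 to 1.24 to 3.36 to 8.35 CPM (log2FC 2.53 ± 0.59, adjusted p = 0.00282). Lcn2, lipocalin 2, which binds siderophores, was at 0.143, 0.148, 0.302, 0.0619 and 7.23 CPM in Sham and 7.23, 16.2, 20.7, 12.6 and 20.1 CPM in PBS mice. It was not called (adjusted p = 0.0666), with Sham mouse 4 as high as the lowest PBS mouse, and it was called without Sham mouse 4 and PBS mouse 2 (adjusted p = 0.0205). Both labels used for astrocyte subtypes moved: 8 of 11 A1 genes rose (median 0.87), including the glycosyltransferase Ggta1 (log2FC 1.24, adjusted p = 1.18e-07), and 9 of 11 A2 genes rose (median 1.01), including Tgm1, Ptx3, Cd14 and the cytokine Clcf1 (log2FC 1.35, adjusted p = 1.86e-06). Of 20 genes of resting astrocytes, 7 rose and 0 fell, by small amounts. Aqp4, the water channel of astrocyte end-feet, was at 175, 191, 164, 161 and 150.2 CPM in Sham and 276, 293, 268, 267 and 229.9 CPM in PBS mice (log2FC 0.66 ± 0.10, adjusted p = 2.33e-05). The gap junction gene Gja1 (log2FC 0.27, adjusted p = 0.000823) and Mlc1 (log2FC 0.26, adjusted p = 0.00116) rose less. With the Sham mice of week 1 alone as controls, 4 of 11 A1, 7 of 11 A2, 3 of 20 resting-state and 9 of 13 shared reactive genes were higher.

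Microglial genes rose in both resting and activated programmes. Of 20 resting-state genes 17 rose (median 0.63). Tmem119, a membrane protein of microglia, was at 14.8, 16.9, 17.3, 16.1 and 17 CPM in Sham and 22, 29.5, 23, 26.8 and 22.7 CPM in PBS mice (log2FC 0.6 ± 0.08, adjusted p = 2.56e-06). The fractalkine receptor Cx3cr1 rose from 42.4 to 48.5 to 61.1 to 81.4 CPM (log2FC 0.65 ± 0.075, adjusted p = 2.61e-07). The purinergic receptor P2ry12, which guides microglial processes and is usually lost on activation, was at 27.6 to 35.3 CPM in Sham and 30.6 to 40.5 CPM in PBS mice, with overlapping groups, and was not called (adjusted p = 0.187). Fcrls (log2FC 1.39, adjusted p = 3.09e-08), Olfml3 (log2FC 1.08, adjusted p = 7.28e-07), the nucleotide receptor P2ry6 (log2FC 1.1, adjusted p = 1.52e-06) and the fatty acid receptor Gpr84 (log2FC 1.81, adjusted p = 5.28e-06) led this list. Of 26 disease-associated genes 21 rose (median 1.02). Clec7a, the beta-glucan receptor dectin-1, was at 0.516, 0.443, 0.503, 0.526 and 0.648 CPM in Sham and 4.15, 3.85, 4.37, 4.08 and 2.29 CPM in PBS mice (log2FC 2.83 ± 0.42, adjusted p = 1.08e-05), with PBS mouse 4 the lowest of its group. Gpnmb, a lysosomal glycoprotein of lipid-laden phagocytes, was at 3.09, 3.52, 3.89, 2.44 and 2.66 CPM in Sham and 11.4, 45.2, 18.2, 16.8 and 8.27 CPM in PBS mice (log2FC 2.69 ± 0.57, adjusted p = 0.00114), with PBS mouse 1 far above the others. In bulk RNA, more cells of a type and more RNA of a gene per cell cannot be told apart.

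Genes found across myeloid cells were the most uniform group, with 29 of 30 higher, 0 lower and a median of 1.32, and only Coro1a was not called. Lyz2, lysozyme, was at 4.95, 6.13, 5.74, 3.4 and 10 CPM in Sham and 24.8, 57.2, 29.4, 28.2 and 22.3 CPM in PBS mice (log2FC 2.43 ± 0.45, adjusted p = 0.000265). Cybb, the catalytic subunit of the phagocyte oxidase, was at 0.433 to 1.26 and 2.89 to 5.53 CPM (log2FC 2.17 ± 0.34, adjusted p = 2.62e-05). Markers of infiltrating monocytes and border macrophages rose in 11 of 21 cases (median 1.12). Ccr2, the receptor that leads monocytes into tissue, was at 0.917, 0.788, 1.17, 0.773 and 1.33 CPM in Sham and 2.79, 2.62, 3.6, 1.73 and 2.23 CPM in PBS mice (log2FC 1.39 ± 0.34, adjusted p = 0.00493). The membrane protein gene Ms4a6d rose from 1.86 to 2.96 to 3.74 to 6.27 CPM (log2FC 1.12 ± 0.18, adjusted p = 4.38e-05). All of these levels were low. Of 11 neutrophil genes 2 rose, and S100a9, the abundant calcium-binding protein of neutrophils, was at 0.372, 0.197, 0.906, 0.0619 and 1.33 CPM in Sham and 1.17, 1.03, 6.1, 1.19 and 0.557 CPM in PBS mice, with overlapping groups (adjusted p = 0.179). The neutrophil genes that rose were the growth factor receptor Csf3r (log2FC 1.03, adjusted p = 0.000231) and the collagenase Mmp8 (log2FC 2.55, adjusted p = 0.0267). Of 22 T, NK and B cell genes 1 rose, the NK cell receptor Klrd1 (log2FC 2.13, adjusted p = 0.0393), below the 8.73% of all genes tested, and it was not called without Sham mouse 4 and PBS mouse 2 (adjusted p = 0.059). Cd3d, a chain of the T cell receptor complex, was at 1.38 to 3.09 CPM in Sham and 1.92 to 2.29 CPM in PBS mice (log2FC 0.054 ± 0.16, adjusted p = 0.887).

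Among signalling molecules, 12 of 28 chemokine ligands rose and 3 fell. Ccl2, the ligand of Ccr2, was at 0, 0.0738, 0.101, 0 and 0.154 CPM in Sham and 1.05, 0.769, 2.38, 1.19 and 1.47 CPM in PBS mice. Ccl3, which draws monocytes and T cells, was at 0.0619 to 0.201 and 0.528 to 4.08 CPM (log2FC 3.62 ± 0.54, adjusted p = 1.22e-05). Cxcl10, an interferon-induced chemokine, was at 0.172, 0.0738, 0.101, 0.124 and 0.0926 CPM in Sham and 2.44, 0.986, 3.6, 2.14 and 1.76 CPM in PBS mice (log2FC 4.23 ± 0.50, adjusted p = 3.79e-07). Each of them separated the groups without overlap. The members that fell were made in the resting brain: the neuronal ligand Cx3cl1 (log2FC -0.25, adjusted p = 0.00765), Cxcl12 (log2FC -0.25, adjusted p = 0.0463) and Ccl27a (log2FC -0.36, adjusted p = 0.00106), all named because they were the exceptions. Cxcl12 was not called without Sham mouse 4 and PBS mouse 2 (adjusted p = 0.0815). Of 19 chemokine receptors 6 rose, among them Ccr1 (log2FC 3.02, adjusted p = 0.00362) and Cxcr4 (log2FC 0.99, adjusted p = 0.01), the latter not called without PBS mouse 2 and Sham mouse 4 (adjusted p = 0.0942). In the interleukin-1 and TNF family 10 of 25 genes rose and 0 fell. Il1b, the main secreted form, was at 0.0573, 0.148, 0.0336, 0.124 and 0.401 CPM in Sham and 0.254, 0.745, 5.33, 0.471 and 1.06 CPM in PBS mice, with overlapping groups (log2FC 3.32 ± 0.91, adjusted p = 0.0117), and was not called without PBS mouse 2. The receptor Tnfrsf1a rose from 7.25 to 10.1 to 12.4 to 18.2 CPM (log2FC 0.9 ± 0.13, adjusted p = 5.31e-06). Of 19 genes of the gp130 and STAT3 pathway 9 rose, including the oncostatin M receptor Osmr (log2FC 1.35, adjusted p = 6.43e-06), the feedback inhibitor Socs3 (log2FC 1.43, adjusted p = 0.000243) and the nuclear regulator Bcl3 (log2FC 1.98, adjusted p = 0.000557).

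Innate receptors followed. Of 25 Toll-like receptor and inflammasome genes 18 rose (median 0.82), led by Tlr1 (log2FC 2.25, adjusted p = 6.52e-08), Tlr2 (log2FC 2.33, adjusted p = 2.08e-06), Tlr7 (log2FC 1.54, adjusted p = 4.97e-08) and Tlr13. Of 20 Fc gamma receptors and C-type lectins 17 rose (median 1.36). Fcgr2b, the inhibitory Fc receptor, was at 1.8, 2.34, 3.32, 1.92 and 6.76 CPM in Sham and 9.45, 14.7, 13.1, 10.7 and 11.3 CPM in PBS mice (log2FC 1.89 ± 0.33, adjusted p = 0.00012), where Sham mouse 4 was again the highest Sham mouse. Of 25 complement genes 11 rose and 0 fell. C3, the central component, was at 1.03, 1.94, 1.07, 2.04 and 2.35 CPM in Sham and 8.27, 13.5, 19.9, 8.23 and 9.7 CPM in PBS mice (log2FC 2.81 ± 0.71, adjusted p = 0.00613). The receptors C3ar1 (log2FC 2, adjusted p = 2.05e-07) and C5ar1 (log2FC 2.67, adjusted p = 6.52e-06) rose as well. Against the Sham mice of week 1 alone 8 of the 25 complement genes were higher, and C3 was not called (adjusted p = 0.0756).

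Type I interferon-stimulated genes rose broadly, with 40 of 45 higher, 0 lower and a median of 0.95. Ifi204, a sensor of cytosolic DNA, was at 0.2, 0.295, 0.302, 0.433 and 0.803 CPM in Sham and 2.66, 3.32, 6.78, 4.3 and 4.78 CPM in PBS mice (log2FC 3.43 ± 0.36, adjusted p = 6.6e-08). Zbp1, a sensor of Z-form nucleic acids that can trigger cell death, rose from 0.0492 to 0.278 to 0.625 to 2.41 CPM (log2FC 3.3 ± 0.42, adjusted p = 1.38e-06). The related Ifi207 rose from 0.247 to 0.679 to 1.84 to 4.82 CPM (log2FC 2.77 ± 0.38, adjusted p = 4.1e-06), and Ifi27l2a from 0.286 to 0.895 to 2.47 to 4.28 CPM (log2FC 2.7 ± 0.34, adjusted p = 7.78e-07). None of the 4 overlapped between groups. Interferon-gamma-induced GTPases, which attack the vacuoles of intracellular microbes, rose in 8 of 17 cases, with Gbp2 at 2.38 to 3.61 CPM in Sham and 5.58 to 7.61 CPM in PBS mice (log2FC 1.3 ± 0.20, adjusted p = 1.38e-05).

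Interferons act on many of these genes through the interferon-stimulated response element, GAAA followed by any 2 bases and GAAA. It was searched on both strands, overlapping matches counted, in the 250 bases before the start of each RefSeq entry (build GRCm38.p6). There were 32851 entries for 27025 genes, and a gene counted where any of its entries held a match. It was present in 13 of the 31 interferon-stimulated genes with a promoter in that table (41.9%) and in 936 of all 27025 genes (3.46%). Promoters of 4 genes that hold it are shown, with the element in capitals on whichever strand it lies, since these genes moved together here. Isg15 encodes a ubiquitin-like modifier, Ifit1 a binder of foreign RNA caps, Oas1a a sensor of double-stranded RNA and Cxcl10 the chemokine above.
Isg15 (chr4:156200819-156201068, minus strand): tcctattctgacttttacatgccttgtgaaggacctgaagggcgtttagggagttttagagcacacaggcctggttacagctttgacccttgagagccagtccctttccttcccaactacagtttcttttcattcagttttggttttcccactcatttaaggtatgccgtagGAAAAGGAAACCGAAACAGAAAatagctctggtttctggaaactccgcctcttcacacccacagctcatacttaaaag
Ifit1 (chr19:34640639-34640888, plus strand): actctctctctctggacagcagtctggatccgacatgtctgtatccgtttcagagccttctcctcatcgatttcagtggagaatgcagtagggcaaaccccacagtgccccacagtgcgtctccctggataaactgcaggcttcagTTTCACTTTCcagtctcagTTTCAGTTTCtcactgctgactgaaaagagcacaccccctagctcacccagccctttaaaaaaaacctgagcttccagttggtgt
Oas1a (chr5:120907526-120907775, minus strand): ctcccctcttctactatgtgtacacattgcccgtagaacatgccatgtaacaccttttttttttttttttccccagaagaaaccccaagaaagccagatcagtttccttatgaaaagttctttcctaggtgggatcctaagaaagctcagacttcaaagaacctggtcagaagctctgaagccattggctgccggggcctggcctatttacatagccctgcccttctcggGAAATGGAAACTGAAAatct
Cxcl10 (chr5:92348890-92349139, minus strand): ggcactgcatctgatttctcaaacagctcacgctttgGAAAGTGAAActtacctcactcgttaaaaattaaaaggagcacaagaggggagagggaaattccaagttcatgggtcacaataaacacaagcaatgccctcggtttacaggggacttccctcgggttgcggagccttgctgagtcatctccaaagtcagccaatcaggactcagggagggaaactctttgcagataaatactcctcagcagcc
The element nearest to the start ended 4 bases before it in Oas1a, 56 in Isg15, 75 in Ifit1 and 203 in Cxcl10. In Isg15 and Oas1a the matches overlapped each other. Isg15 was at 1.8, 1.65, 2.15, 2.32 and 2.69 CPM in Sham and 3.64, 2.96, 5.49, 4.02 and 5.63 CPM in PBS mice (log2FC 1.04 ± 0.21, adjusted p = 0.000698). Ifit1 was at 1.86 to 2.72 and 3.56 to 8.1 CPM (log2FC 1.2 ± 0.24, adjusted p = 0.00075), and Oas1a at 0.344 to 1.02 and 1.71 to 3.02 CPM (log2FC 1.82 ± 0.26, adjusted p = 5.04e-06). These 3 genes were chosen for their promoters after their values were seen, and a match to the letters does not show that a factor binds there.

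Antigen presentation genes moved in the same direction. Of 20 MHC class I genes 14 rose and 0 fell. The class I activator Nlrc5 was at 0.773, 1.16, 0.671, 0.928 and 1.14 CPM in Sham and 2.73, 2.86, 4.27, 3.42 and 2.87 CPM in PBS mice (log2FC 1.77 ± 0.26, adjusted p = 9.57e-06), and the immunoproteasome subunit Psmb8 at 1.64 to 2.19 and 4.95 to 6.2 CPM (log2FC 1.49 ± 0.20, adjusted p = 2.65e-06). H2-Q6 and H2-Q7 also rose (log2FC 1.05, adjusted p = 0.018 and log2FC 1.74, adjusted p = 0.00151), although reads of these near-identical copies can be split by the counting. H2-Q6 was not called without Sham mouse 4 and PBS mouse 2 (adjusted p = 0.0912). Of 13 MHC class II genes 8 rose. H2-Aa, a chain of the class II molecule, was at 1.52, 1.87, 1.24, 0.804 and 0.926 CPM in Sham and 4.37, 4.01, 5.3, 4.93 and 3.61 CPM in PBS mice (log2FC 1.78 ± 0.45, adjusted p = 0.00567). Against the Sham mice of week 1 alone, 4 of the 13 class II genes were higher.

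Genes for digestion and lipid handling rose by smaller folds at high levels. Of 30 lysosomal genes 23 rose (median 0.34). The cathepsin Ctss was at 36.9, 34.3, 37, 36.4 and 71.1 CPM in Sham and 102, 106, 80.7, 98.3 and 87.9 CPM in PBS mice (log2FC 1.14 ± 0.18, adjusted p = 3.75e-05). Other cathepsins that rose were Ctsz (log2FC 1.07, adjusted p = 2.04e-08) and Ctsc (log2FC 1.18, adjusted p = 7.33e-06). Sham mouse 4 was the highest Sham mouse for all 3 cathepsins. Of 19 genes of lipid handling and cholesterol export 14 rose and 1 fell. Those that rose included the exporter Abca1 (log2FC 0.87 ± 0.13, adjusted p = 1.45e-05), the lipid droplet coat protein Plin2 (log2FC 1.47, adjusted p = 1.5e-06) and the fatty acid carrier Fabp7 (log2FC 0.87, adjusted p = 0.000155). The counts were 7 higher and 0 lower against the Sham mice of week 1 alone. Of 16 iron and heme genes 6 rose, including Hmox1, the phagosomal metal transporter Slc11a1 (log2FC 1.53, adjusted p = 2.43e-06) and ferritin light chain Ftl1 (log2FC 0.78, adjusted p = 6.51e-07), while 0 of 5 red cell genes were called, also by DESeq2 or at an unadjusted p under 0.05.

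Cholesterol synthesis went the other way. Of 22 genes of the pathway 15 fell and 0 rose, all 22 fold changes were below 0, and the median was -0.25. Insig1, the sterol-sensing anchor that holds back the pathway's activator, was at 86.3, 98, 89.9, 91.1 and 79.8 CPM in Sham and 60.6, 70.8, 62.6, 67.4 and 67.7 CPM in PBS mice (log2FC -0.44 ± 0.092, adjusted p = 0.00109). Cyp51, a demethylase of lanosterol, was at 64.9, 69.3, 65.1, 72.4 and 59.3 CPM in Sham and 49.4, 53.8, 52.4, 51 and 47.5 CPM in PBS mice (log2FC -0.38 ± 0.064, adjusted p = 6.18e-05). Both separated the groups without overlap, and so did the isomerase Idi1 (log2FC -0.39, adjusted p = 0.00029), the sterol carrier Stard4 (log2FC -0.4, adjusted p = 0.00146) and Srebf2, the transcription factor that activates the pathway (log2FC -0.28 ± 0.042, adjusted p = 1.56e-05).

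Cell cycle and DNA replication genes rose in 32 of 35 cases with a median of 0.98. Top2a, the topoisomerase that untangles replicated DNA, was at 1.98, 1.97, 1.78, 1.73 and 4.32 CPM in Sham and 9.57, 17.1, 13.9, 11.5 and 10.1 CPM in PBS mice (log2FC 2.4 ± 0.24, adjusted p = 3.06e-08). Ccnb1, the mitotic cyclin, was at 0.401, 0.418, 0.57, 0.433 and 0.556 CPM in Sham and 2.31, 2.67, 2.89, 2.92 and 2.11 CPM in PBS mice (log2FC 2.44 ± 0.25, adjusted p = 4.76e-08). Its kinase Cdk1 (log2FC 2.31, adjusted p = 2.61e-07) and the spindle checkpoint kinase Bub1 (log2FC 2.37, adjusted p = 4.15e-06) rose alike. Sham mouse 4 had more than any other Sham mouse for Top2a and Cdk1. Among gene symbols sharing a stem, a grouping made after the values were seen, 8 of the 10 tested Mcm genes, most of them subunits of the replicative helicase, rose. Of 17 oligodendrocyte precursor genes 2 were called higher (11.8%, close to the 8.73% of all genes tested), the calcium channel Itpr2 (log2FC 0.32, adjusted p = 0.000405) and Pdgfra, the receptor that keeps precursors dividing (log2FC 0.19, adjusted p = 0.0217, overlapping groups). Pdgfra was not called without Sham mouse 4 and PBS mouse 2 (adjusted p = 0.114) or against the Sham mice of week 1 alone (adjusted p = 0.448).

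Matrix, vessel and growth factor genes changed in part. Of 27 collagen and fibroblast matrix genes 9 rose. Col3a1, fibrillar collagen III, was at 7.73, 9.6, 7.18, 5.88 and 7.26 CPM in Sham and 17.2, 15.9, 38, 17.9 and 12.4 CPM in PBS mice (log2FC 1.41 ± 0.33, adjusted p = 0.00292), with mouse 2 the highest. Against the Sham mice of week 1 alone, 1 of the 27 was higher. Col1a1 (log2FC 0.97, adjusted p = 0.00661) and the collagen crosslinker Lox (log2FC 1.27, adjusted p = 0.00734) were not called without PBS mouse 2 and Sham mouse 4. Of 28 scar matrix, protease and inhibitor genes 11 rose, including Spp1, osteopontin. It was at 19.9, 30.4, 12, 8.97 and 9.17 CPM in Sham and 24.4, 114, 88.6, 26.7 and 39.4 CPM in PBS mice (log2FC 1.85 ± 0.44, adjusted p = 0.00362), and Sham mouse 1 lay above PBS mice 0 and 3. Of 18 TGF-beta genes 5 rose, including the ligand Tgfb1, from 4.73 to 6.79 to 7.74 to 11.4 CPM (log2FC 0.8 ± 0.13, adjusted p = 3.68e-05). The matrix protein Tgfbi (log2FC 1.33, adjusted p = 0.000851) rose too, and 1 gene fell, the activin subunit Inhba (log2FC -0.66, adjusted p = 0.00334). Inhba overlapped between the groups and was not called against the Sham mice of week 1 alone (log2FC -0.153, adjusted p = 0.593). Endothelial and pericyte genes were nearly level, with 1 of 24 higher, the glucose transporter Slc2a1 (log2FC 0.4, adjusted p = 0.0303), 1 lower, the smooth muscle actin Acta2 (log2FC -0.53, adjusted p = 0.0267), and a median of 0.0052. Pecam1, an adhesion molecule of endothelium, was at 18.5 to 24.5 CPM in Sham and 19.5 to 21.8 CPM in PBS mice (log2FC 0.014 ± 0.09, adjusted p = 0.951). Of 22 vessel activation and adhesion genes 3 were called higher and 1 lower (13.6% and 4.55%, against 8.73% and 5.03% of all genes tested). The higher ones were the adhesion molecules Icam1 (log2FC 1.1, adjusted p = 0.00549) and Vcam1 (log2FC 0.47, adjusted p = 0.000484) and the hydroxylase Ch25h (log2FC 1.6, adjusted p = 0.03). The growth factor Vegfa fell (log2FC -0.32, adjusted p = 0.00211). Icam1 overlapped between the groups and was not called against the Sham mice of week 3 alone (adjusted p = 0.0687). Ch25h was not called against either week alone (adjusted p = 0.065 for week 1 and 0.153 for week 3). Vegfa was not called against week 1 alone. The mean log2 CPM of these 22 genes overlapped between the groups. Of 24 insulin-like growth factor and neurotrophic genes 6 rose, among them Igfbp2 (log2FC 0.66, adjusted p = 0.00152), Fgf2 (log2FC 0.55, adjusted p = 0.00213) and Cntf (log2FC 0.77, adjusted p = 0.0129). The neurotrophin Bdnf, which firing neurons also induce, fell (log2FC -0.41, adjusted p = 0.0194). Without Sham mouse 4 and PBS mouse 2, Bdnf (adjusted p = 0.0596) and Acta2 (adjusted p = 0.112) were not called. Of the 24 growth factor genes, 3 were higher against the Sham mice of week 1 alone. Of 21 mature oligodendrocyte genes 3 were called higher and 1 lower (14.3% and 4.76%, against 8.73% and 5.03% of all genes tested). The higher ones were Apod (log2FC 0.62, adjusted p = 0.00214), Trf (log2FC 0.38, adjusted p = 0.00584) and Cldn11 (log2FC 0.28, adjusted p = 0.0223). Against the Sham mice of week 3 alone 1 of the 21 was higher and 2 were lower, and Trf and Cldn11 were not called. Myelin basic protein, Mbp, was at 2148 to 2547 CPM in Sham and 1843 to 2412 CPM in PBS mice (adjusted p = 0.362).

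**Figure D3:**
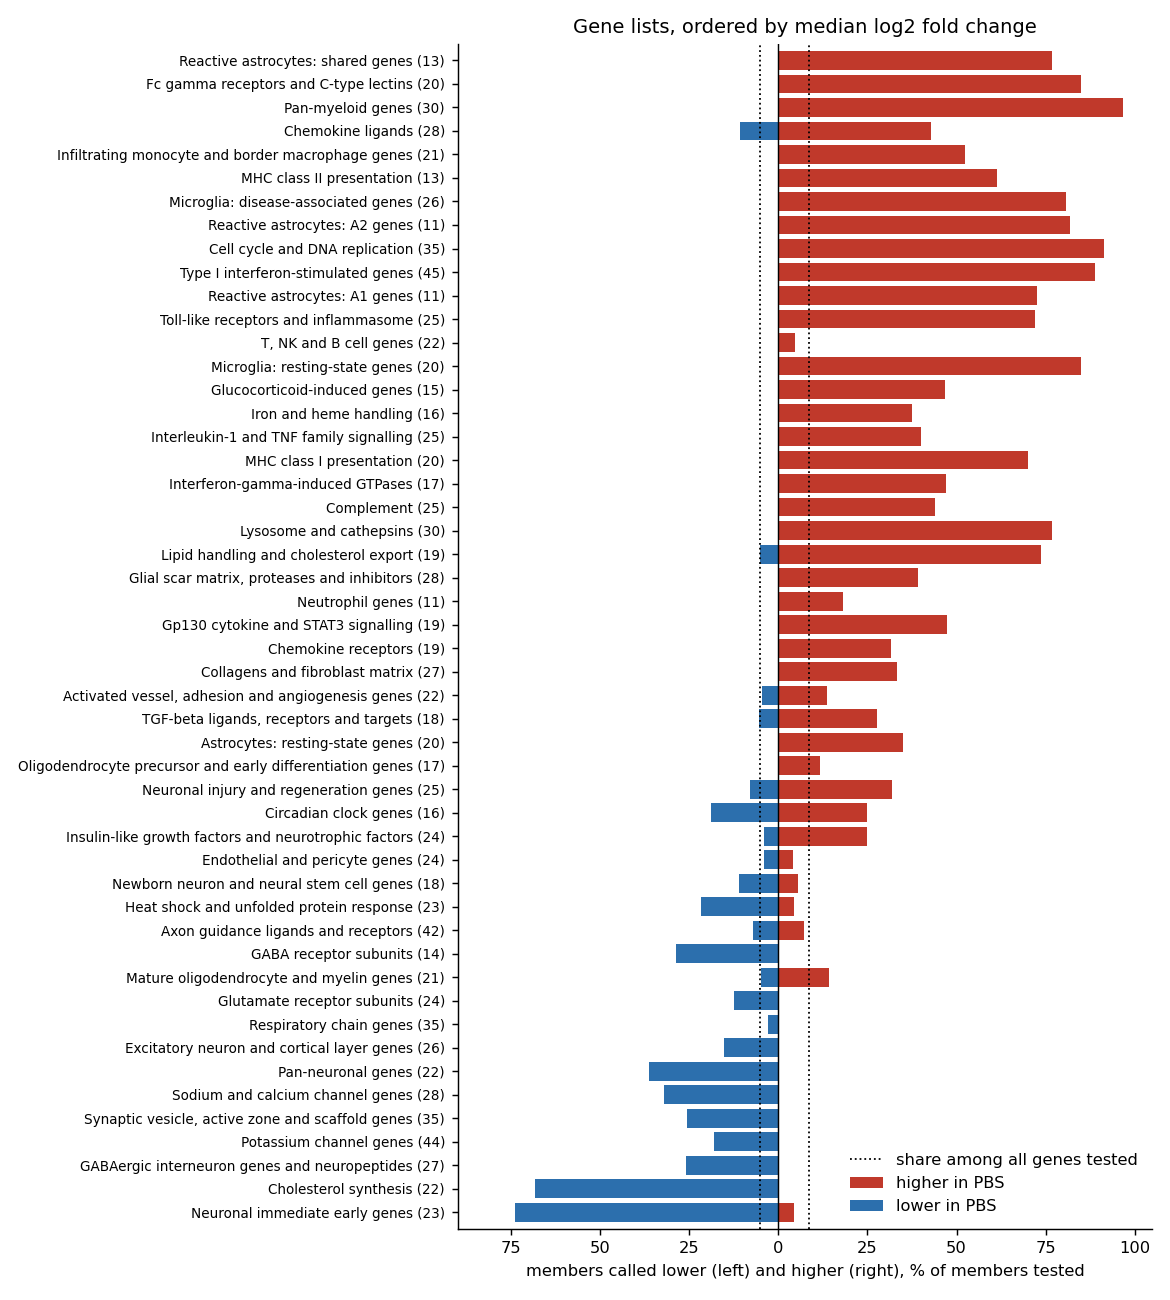
Percent of the tested genes of each list called higher (right) or lower (left) in PBS at 1 wpi than in Sham, with dotted lines at the shares over all genes tested (8.73% and 5.03%). Myeloid, cell cycle and interferon lists lie far to the right, and immediate early and cholesterol synthesis lists far to the left.

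Among lower genes without overlap and with at least 1 CPM in Sham, the greatest falls were in immediate early genes, which neurons transcribe upon firing. Of 23 such genes 17 fell, with a median of -0.53. Egr2 (ENSMUSG00000037868, chr10:67535475-67542188, plus strand, GRCm38), a zinc finger transcription factor, was at 10.7, 9.28, 8.62, 13.4 and 17.8 CPM in Sham and 5.61, 5.46, 7.49, 4.05 and 3.08 CPM in PBS mice (log2FC -1.22 ± 0.22, adjusted p = 0.000136). Arc (ENSMUSG00000022602, chr15:74669083-74672570, minus strand, GRCm38), whose protein carries synaptic change in dendrites, was at 148, 120.3, 188, 254 and 326 CPM in Sham and 104, 92.2, 117, 81.1 and 96.2 CPM in PBS mice (log2FC -1.08 ± 0.21, adjusted p = 0.000432). Neither showed overlap, but the Sham mice of week 3, mouse 4 above all, were higher for Arc than those of week 1. Fos, a subunit of the AP-1 factor, was at 28, 24.2, 23.7, 37.9 and 40.1 CPM in Sham and 16.3, 18.8, 19.3, 13 and 10.1 CPM in PBS mice (log2FC -0.99 ± 0.19, adjusted p = 0.000412). Nr4a1, a nuclear receptor, was at 101, 80.8, 80.2, 98.1 and 121 CPM in Sham and 55.4, 51.5, 59, 42 and 43.6 CPM in PBS mice (log2FC -0.94 ± 0.17, adjusted p = 0.000144). Egr1 (log2FC -0.88, adjusted p = 2.17e-05), Fosb (log2FC -0.81, adjusted p = 2.68e-05), Npas4 (log2FC -0.83, adjusted p = 0.0118) and Egr4 (log2FC -0.71, adjusted p = 6.94e-05) fell without overlap as well. The exception was Fosl1, an AP-1 subunit induced by injury, which was at 0.0286, 0, 0.0671, 0.0928 and 0 CPM in Sham and 0.19, 0.288, 0.257, 0.188 and 0.235 CPM in PBS mice and was called higher (adjusted p = 0.00153). Against the Sham mice of week 1 alone, 7 of the 23 genes were lower, Arc (adjusted p = 0.179) and Npas4 (adjusted p = 0.203) were not called, and Egr2 (adjusted p = 0.0126), Fos (adjusted p = 0.0323) and Nr4a1 (adjusted p = 0.00777) were. Without Sham mouse 4 and PBS mouse 2, 12 of the 23 were lower, and Npas4 was not called (adjusted p = 0.0998).

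Firing reaches these genes through the cyclic AMP response element and the serum response element, whose core is the CArG box. TGACGTCA was found in 2 of the 17 immediate early genes with a promoter in the table (Btg2 and Dusp1, neither of them called) and in 1.77% of all genes, and the CArG box in 1 of 17 and in 1.62% of all genes. The 1 match was in Egr2, the immediate early gene with the largest fall, and is shown in capitals.
Egr2 (chr10:67537619-67537868, plus strand): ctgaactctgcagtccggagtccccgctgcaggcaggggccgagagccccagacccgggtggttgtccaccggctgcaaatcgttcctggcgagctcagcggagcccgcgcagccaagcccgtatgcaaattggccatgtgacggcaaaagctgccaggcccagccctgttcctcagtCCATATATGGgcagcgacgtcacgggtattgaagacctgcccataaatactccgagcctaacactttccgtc
The box ended 62 bases before the start of the entry shown. That entry is not the only one of Egr2, and its window lies inside the gene's span given above, so it precedes an internal start. Other elements were searched in the same way. The STAT element TTCCNGGAA was in 0 of 16 genes of the gp130 list, in 1 of 13 shared reactive astrocyte genes (Steap4) and in 1.09% of all genes. The sterol regulatory element, ATCAC followed by any base and CCAC, was in 0 of 16 cholesterol synthesis genes and in 0.226% of all genes. TCACGTGA, the element of lysosomal genes, was in 2 of 24 lysosomal genes (Ctsa and Ctsd) and in 0.907% of all genes. No match in this window says nothing of elements farther away.

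Other genes with a marked fall were expressed by neurons of the cortex. Lamp5, a membrane protein of superficial cortical neurons and neurogliaform cells, was at 78.1, 80, 102, 90.3 and 101 CPM in Sham and 56, 36, 46.5, 62.4 and 69.9 CPM in PBS mice (log2FC -0.74 ± 0.14, adjusted p = 0.000454), with PBS mouse 1 the lowest. Cckbr, a receptor for cholecystokinin on pyramidal cells, was at 34.8, 38.3, 37.5, 32.3 and 37.3 CPM in Sham and 27.4, 18.8, 24, 24.5 and 26.2 CPM in PBS mice (log2FC -0.58 ± 0.072, adjusted p = 9.44e-07). The groups did not overlap in either. Against the Sham mice of week 1 alone Lamp5 was not called (log2FC -0.563, adjusted p = 0.0532), while Cckbr was (log2FC -0.614, adjusted p = 7.89e-05). By adjusted p, Cckbr was followed by Pcsk1, a protease that matures neuropeptides (log2FC -0.48 ± 0.061, adjusted p = 1.07e-06) and the small GTPase Diras2 (log2FC -0.42 ± 0.062, adjusted p = 1.01e-05). The 10 smallest adjusted p-values among lower genes also included the synaptic adhesion gene Amigo1 (log2FC -0.22, adjusted p = 1.28e-05), Plcxd2 (log2FC -0.29, adjusted p = 2.33e-05) and the zinc finger gene Hivep1 (log2FC -0.34, adjusted p = 3.92e-05), besides Arntl, Srebf2, Egr1 and Fosb. At low levels, Trbc2 (log2FC -0.83, adjusted p = 0.00106), Mylk3 (log2FC -0.77, adjusted p = 0.000318), Xirp2 (log2FC -0.77, adjusted p = 0.00418), Npc1l1 (log2FC -0.77, adjusted p = 0.0103), Gm29695 (log2FC -0.71, adjusted p = 0.000209) and Wnt6 (log2FC -0.67, adjusted p = 0.0466) fell too. Npc1l1 (adjusted p = 0.0602) and Wnt6 (adjusted p = 0.125) were not called without Sham mouse 4 and PBS mouse 2. Against the Sham mice of week 1 alone Xirp2, Npc1l1 and Wnt6 were not called. Trbc2, a constant region gene of the T cell receptor, was at 4.75, 3.94, 3.99, 4.08 and 4.79 CPM in Sham and 2.38, 1.44, 1.73, 3.27 and 3.31 CPM in PBS mice, without overlap.

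**Figure D4:**
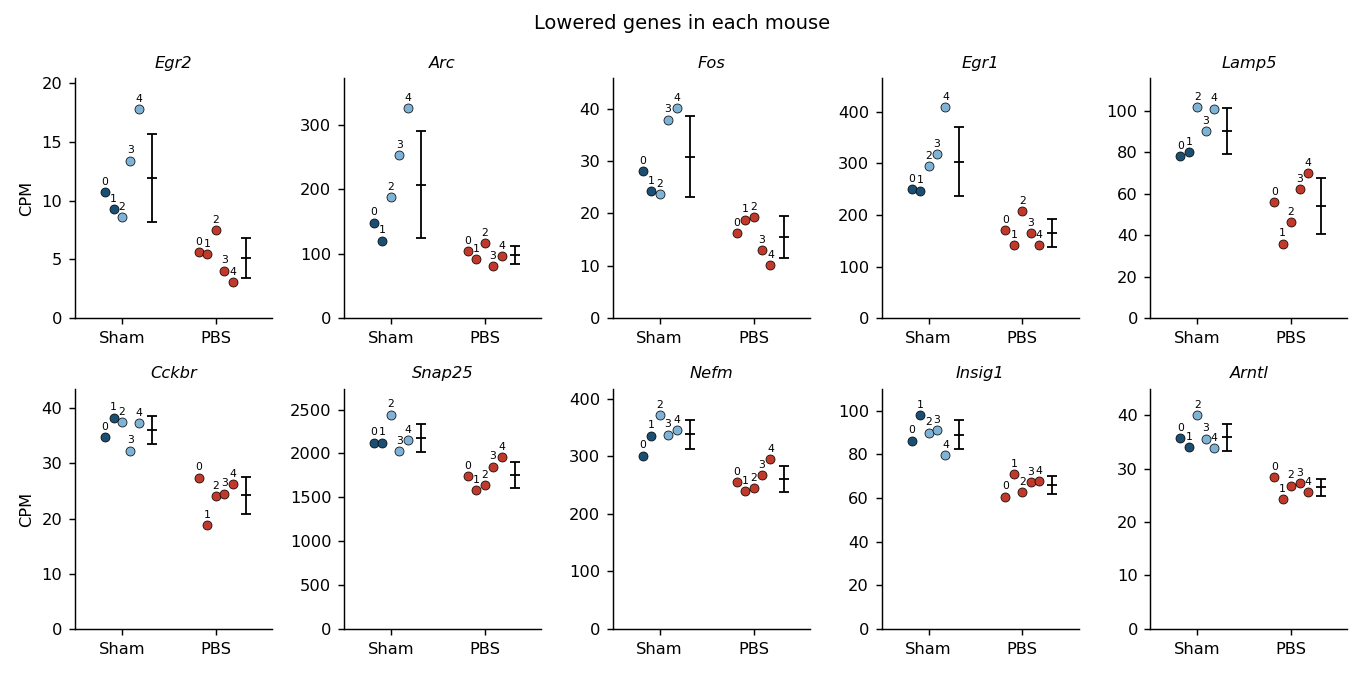
CPM on a linear axis from 0 for 10 genes lowered at 1 wpi, with bars for the group mean and SD over 5 mice and each mouse as a point marked by its replicate number (dark blue, Sham of week 1; light blue, Sham of week 3; red, PBS at 1 wpi). PBS mice lie below Sham mice, and the Sham mice of week 3 are the highest for genes such as Arc.

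Lists of neuronal genes fell in part and by little. Of 22 pan-neuronal genes 8 fell (36.4%, against 5.03% of all genes tested) and 0 rose. The fold change was below 0 in 21 of 22, with a median of -0.1. Snap25, a protein of synaptic vesicle fusion, was at 2124, 2124, 2442, 2029 and 2156 CPM in Sham and 1743, 1586, 1639, 1849 and 1958 CPM in PBS mice (log2FC -0.31 ± 0.052, adjusted p = 6.56e-05). Nefm, the medium neurofilament of axons, was at 301, 336, 372, 338 and 346 CPM in Sham and 255, 240.0, 245, 267 and 295 CPM in PBS mice (log2FC -0.38 ± 0.065, adjusted p = 9.18e-05). Its heavy partner Nefh (log2FC -0.33, adjusted p = 0.0178) and the RNA-binding protein Elavl4 (log2FC -0.25, adjusted p = 0.000135) fell too. In all 4 genes every PBS mouse was below every Sham mouse. Nefh was not called against the Sham mice of either week alone, nor without PBS mouse 2, Sham mouse 1 or Sham mouse 2. Rbfox3, the nuclear antigen NeuN, was at 209 to 227 CPM in Sham and 174 to 226 CPM in PBS mice, overlapped and was not called (log2FC -0.14 ± 0.071, adjusted p = 0.212).

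Of 26 excitatory and cortical layer genes 4 fell (15.4%, against 5.03% of all genes tested). Tbr1, a factor of deep layer neurons, was at 98.7, 97.7, 118, 100.2 and 114 CPM in Sham and 96.5, 63.2, 86.2, 89.5 and 90.6 CPM in PBS mice (log2FC -0.31 ± 0.089, adjusted p = 0.017). PBS mouse 1 was by far the lowest and the other PBS mice were just below the Sham mice, and Tbr1 was not called without PBS mouse 1, nor without Sham mouse 4 and PBS mouse 2 (adjusted p = 0.0742). Of the 26 genes, 2 were lower against the Sham mice of week 1 alone. Slc17a7, the vesicular glutamate transporter of excitatory neurons, was at 897 to 1182 CPM in Sham and 898 to 1113 CPM in PBS mice, with a log2 fold change of -0.011 ± 0.09 (adjusted p = 0.963).

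Of 27 interneuron and neuropeptide genes 7 fell (25.9%, against 5.03% of all genes tested), with a median of -0.23. Pvalb, the calcium buffer of fast-spiking interneurons, was at 30.9, 30.9, 37.3, 32 and 33.9 CPM in Sham and 25.2, 18.3, 17.3, 24.6 and 29.5 CPM in PBS mice (log2FC -0.52 ± 0.14, adjusted p = 0.00753). Gad1, which makes GABA, was at 328, 334, 379, 344 and 369 CPM in Sham and 284, 255, 254, 275 and 293 CPM in PBS mice (log2FC -0.36 ± 0.098, adjusted p = 0.00971). Its partner Gad2 was at 209, 233, 285, 269.7 and 292 CPM in Sham and 231, 222, 204, 219.6 and 215 CPM in PBS mice and was not called (adjusted p = 0.283). The peptides Crh (log2FC -0.58, adjusted p = 0.034), Cort (log2FC -0.66, adjusted p = 0.0492) and Npy (log2FC -0.39, adjusted p = 0.0269) fell as well, the latter 2 with overlapping groups. Without Sham mouse 4 and PBS mouse 2, 0 of the 27 genes were called by edgeR and 8 had an unadjusted p under 0.05, and with all mice DESeq2 called 7. Against Sham mice of week 1 alone Pvalb had an adjusted p of 0.116 and Gad1 of 0.151. The mean log2 CPM of the list fell by 0.0875 against those mice and by 0.293 against the Sham mice of week 3, which also had the higher striatal markers.

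Synaptic machinery and membrane excitability showed the same pattern of small falls. Of 35 synaptic vesicle, active zone and scaffold genes 9 fell and 0 rose (median -0.11), including the complexin Cplx1 (log2FC -0.26, adjusted p = 0.00107), the priming factor Unc13a (log2FC -0.23, adjusted p = 0.00419) and Rims1 (log2FC -0.21, adjusted p = 0.000196). Potassium channel genes fell in 8 of 44 cases (median -0.14), led by Kcns1 (log2FC -0.39, adjusted p = 0.0175), Kcnv1 (log2FC -0.34, adjusted p = 0.00335), Kcnh5 (log2FC -0.54, adjusted p = 0.042) and Kcnh7 (log2FC -0.38, adjusted p = 0.00631). Sodium and calcium channel genes fell in 9 of 28 cases (median -0.11), among them Cacna1i (log2FC -0.26, adjusted p = 0.0347), Cacng2 (log2FC -0.24, adjusted p = 0.000296) and Cacna2d3 (log2FC -0.28, adjusted p = 0.036). The potassium, sodium and calcium channel genes named here were not called against the Sham mice of week 1 alone. The adjusted p there was 0.246 for Kcns1, 0.0721 for Kcnv1, 0.37 for Kcnh5 and 0.119 for Kcnh7. It was 0.238 for Cacna1i, 0.156 for Cacng2 (log2FC -0.105) and 0.691 for Cacna2d3. The groups overlapped for Kcns1, Kcnh5 and Cacna2d3. Of 24 glutamate receptor subunits 3 fell (12.5%) and of 14 GABA receptor subunits 4 fell (28.6%), with 0 higher in both. These were the metabotropic receptors Grm3 (log2FC -0.32, adjusted p = 0.0164) and Grm8 (log2FC -0.29, adjusted p = 0.0395) and the AMPA subunit Gria4 (log2FC -0.2, adjusted p = 0.000215). The GABA-A subunits that fell included Gabra3 and Gabrb2. The groups overlapped for Grm3, Grm8 and Gabrb2. Of the synaptic genes 25.7% were lower, of potassium channels 18.2% and of sodium and calcium channels 32.1%, against 5.03% of all genes tested. Against the Sham mice of week 1 alone 3 glutamate and 2 GABA receptor subunits were lower, and against week 3 alone 1 and 3. Unc13a, Grm3, Grm8, Gabra3 and Gabrb2 were not called against week 1 alone. For the potassium channels PBS mouse 1 was the lowest by a wide margin, with a mean log2 CPM of 6.07 against 6.24 to 6.25 in the other PBS mice. These counts depended on the setting. With the striatal marker score as a covariate, 11 of 22 pan-neuronal, 11 of 35 synaptic, 9 of 27 interneuron, 12 of 44 potassium channel and 11 of 28 sodium and calcium channel genes were lower. With libraries scaled by their totals alone the counts were 4, 7, 3, 5 and 4. They were 7, 10, 5, 4 and 3 against the Sham mice of week 1 alone. Without Sham mouse 4 and PBS mouse 2 they were 8, 9, 0, 5 and 6, and Kcns1 (adjusted p = 0.0915), Kcnh5 (adjusted p = 0.159), Cacna1i (adjusted p = 0.089), Cacna2d3 (adjusted p = 0.195), Grm8 (adjusted p = 0.0836) and Gabra3 (adjusted p = 0.0808) were not called.

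Genes of neuronal injury moved both ways, with 8 of 25 higher and 2 lower. Atf3, the stress-induced factor of damaged neurons, was at 0.229, 0.468, 0.47, 0.928 and 0.957 CPM in Sham and 2.98, 2.62, 3.08, 3.39 and 1.5 CPM in PBS mice (log2FC 2.16 ± 0.31, adjusted p = 6.56e-06). Lgals1, galectin-1, rose from 5.84 to 6.8 to 12.3 to 26.5 CPM (log2FC 1.39 ± 0.16, adjusted p = 2.61e-07), and the tubulin Tubb6 rose less (log2FC 0.79, adjusted p = 3.69e-05). Sprr1a, a marker of regenerating axons that was too scarce to be named by rule, was at 0, 0.0246, 0.0671, 0 and 0 CPM in Sham and 0.634, 0.168, 0.321, 0.503 and 0.616 CPM in PBS mice (adjusted p = 4.12e-05). The genes that fell were the peptides Crh and Vgf (log2FC -0.33, adjusted p = 0.00589). Of 42 axon guidance genes 3 were called higher and 3 lower (7.14% each, close to the 8.73% and 5.03% of all genes tested). The higher ones were Sema3d (log2FC 0.52, adjusted p = 2.96e-06), Sema4d (log2FC 0.17, adjusted p = 0.0293) and Plxnb1 (log2FC 0.16, adjusted p = 0.00539). The lower ones were the ephrin Efna5 (log2FC -0.32, adjusted p = 0.0198), the semaphorin Sema7a (log2FC -0.29, adjusted p = 0.0112) and the netrin receptor Unc5b (log2FC -0.28, adjusted p = 0.0306). Against the Sham mice of week 1 alone, and without Sham mouse 4 and PBS mouse 2, 0 of the 42 were lower. Without those 2 mice the adjusted p was 0.108 for Efna5, 0.0751 for Sema7a, 0.0836 for Unc5b and 0.0789 for Sema4d, and Crh (adjusted p = 0.175) was not called either. Of 18 newborn neuron and stem cell genes 1 was called higher (5.56%, against 8.73% of all genes tested), Igfbpl1 (log2FC 0.86, adjusted p = 0.0176). The 2 called lower (11.1%, against 5.03%) were Tbr1 and the Notch target Hes5 (log2FC -0.37, adjusted p = 0.0314). Neither was called without Sham mouse 4 and PBS mouse 2 (adjusted p = 0.108 for Hes5). Respiratory chain genes had 1 of 35 lower (2.86%, against 5.03% of all genes tested), Atp5b (log2FC -0.12, adjusted p = 0.00949), and 0 higher. Of the 35, 34 had a fold change below 0 (median -0.083) and 16 an unadjusted p under 0.05. Against the Sham mice of week 1 alone 7 were lower, and against those of week 3 alone 0. Atp5b was not called against week 3 alone (adjusted p = 0.0842) or with only these 10 mice in the fit (adjusted p = 0.0941). Heat shock and unfolded protein genes had 5 of 23 lower, among them the chaperones Hspa8 (log2FC -0.22, adjusted p = 0.0013) and Hsph1 (log2FC -0.26, adjusted p = 0.00347, overlapping groups), and 1 higher, the small heat shock protein Hspb8 (log2FC 0.54, adjusted p = 0.00241). Against the Sham mice of week 1 alone 1 of the 23 was lower, and against those of week 3 alone 6 were. Hspa8 (adjusted p = 0.0504) and Hsph1 (adjusted p = 0.35) were not called against week 1 alone.

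Of 16 clock genes 4 rose, 3 fell and 9 were not called, among them Per1, Per2, Cry1, Cry2 and Nr1d1. Arntl, the activating partner of the clock, had the smallest adjusted p of all lower genes and was at 35.7, 34, 40, 35.6 and 33.8 CPM in Sham and 28.4, 24.3, 26.8, 27.3 and 25.6 CPM in PBS mice (log2FC -0.44 ± 0.052, adjusted p = 3.98e-07). Its partners Clock (log2FC -0.11, adjusted p = 0.00562) and Npas2 (log2FC -0.3, adjusted p = 0.0078) also fell. The genes that rose are ones that the clock drives in the opposite phase. The repressor Ciart went from 9.46 to 12.2 to 13.1 to 18.2 CPM (log2FC 0.61 ± 0.11, adjusted p = 0.000122) and Bhlhe41 from 50.8 to 54.4 to 62.8 to 70.2 CPM (log2FC 0.35 ± 0.05, adjusted p = 5.85e-06). Per3 (log2FC 0.25, adjusted p = 0.0187) and Dbp (log2FC 0.44, adjusted p = 0.031) also rose, with overlapping groups. The hour of collection is not in the labels, and its part in these differences was not tested. Of 15 glucocorticoid-induced genes 7 rose. The metallothionein Mt2 was at 42, 48.2, 48.3, 47.4 and 50.1 CPM in Sham and 67.8, 123, 60.3, 109 and 113 CPM in PBS mice (log2FC 1.01 ± 0.19, adjusted p = 0.000341). The kinase Sgk1 was at 51.4, 61.8, 105.3, 104 and 76.1 CPM in Sham and 86.1, 159, 144, 161 and 159.5 CPM in PBS mice, with overlap (log2FC 0.83 ± 0.27, adjusted p = 0.0379), and it was not called without Sham mouse 4 and PBS mouse 2 (adjusted p = 0.0986). Against the Sham mice of week 3 alone, 1 of these 15 genes was higher.

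Of the 7 lower genes past 2-fold, 5 besides Arc and Egr2 were scarce, and were looked at after their values were seen. Omp, the marker protein of olfactory sensory neurons, was at 1.86, 3.2, 1.44, 0.711 and 0.803 CPM in Sham and 0.412, 0.337, 0.418, 0.754 and 0.498 CPM in PBS mice. S100a5, a calcium-binding protein of the same neurons, was at 0.802, 0.788, 0.604, 0.0309 and 0 CPM in Sham and 0, 0, 0, 0 and 0.0586 CPM in PBS mice. Gfy and Cyp2g1 were at 1.23, 1.55, 0.973, 0.464 and 0.587 and at 1.32, 2.46, 1.17, 0.309 and 0.216 CPM in Sham mice against 0.264 to 0.577 and 0 to 0.577 CPM in PBS mice. The high values came mainly from Sham mice 0, 1 and 2, the groups overlapped, and the part of tissue dissection in these differences was not tested. The remaining gene, Olfr464, an odorant receptor, was at 0.43, 0.221, 0.369, 0.619 and 0.556 CPM in Sham and 0.254, 0.024, 0.129, 0.251 and 0.117 CPM in PBS mice. It was not called without Sham mouse 4 and PBS mouse 2 (adjusted p = 0.129).

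The spread between mice was small for most genes. The median SD of log2 CPM was 0.0895 in Sham and 0.101 in PBS mice over 14976 genes, and the fitted biological coefficient of variation was 0.0976. Among PBS mice, mouse 1 was the highest for Tgm1, Gfap, Vim and Serpina3n and the lowest for Tbr1 and Lamp5, mouse 2 was the highest for Clec4d, Acod1, Hcar2 and Arg1, and mouse 4 was the lowest for Hmox1, Lgals3 and Clec7a.

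**Figure D5:**
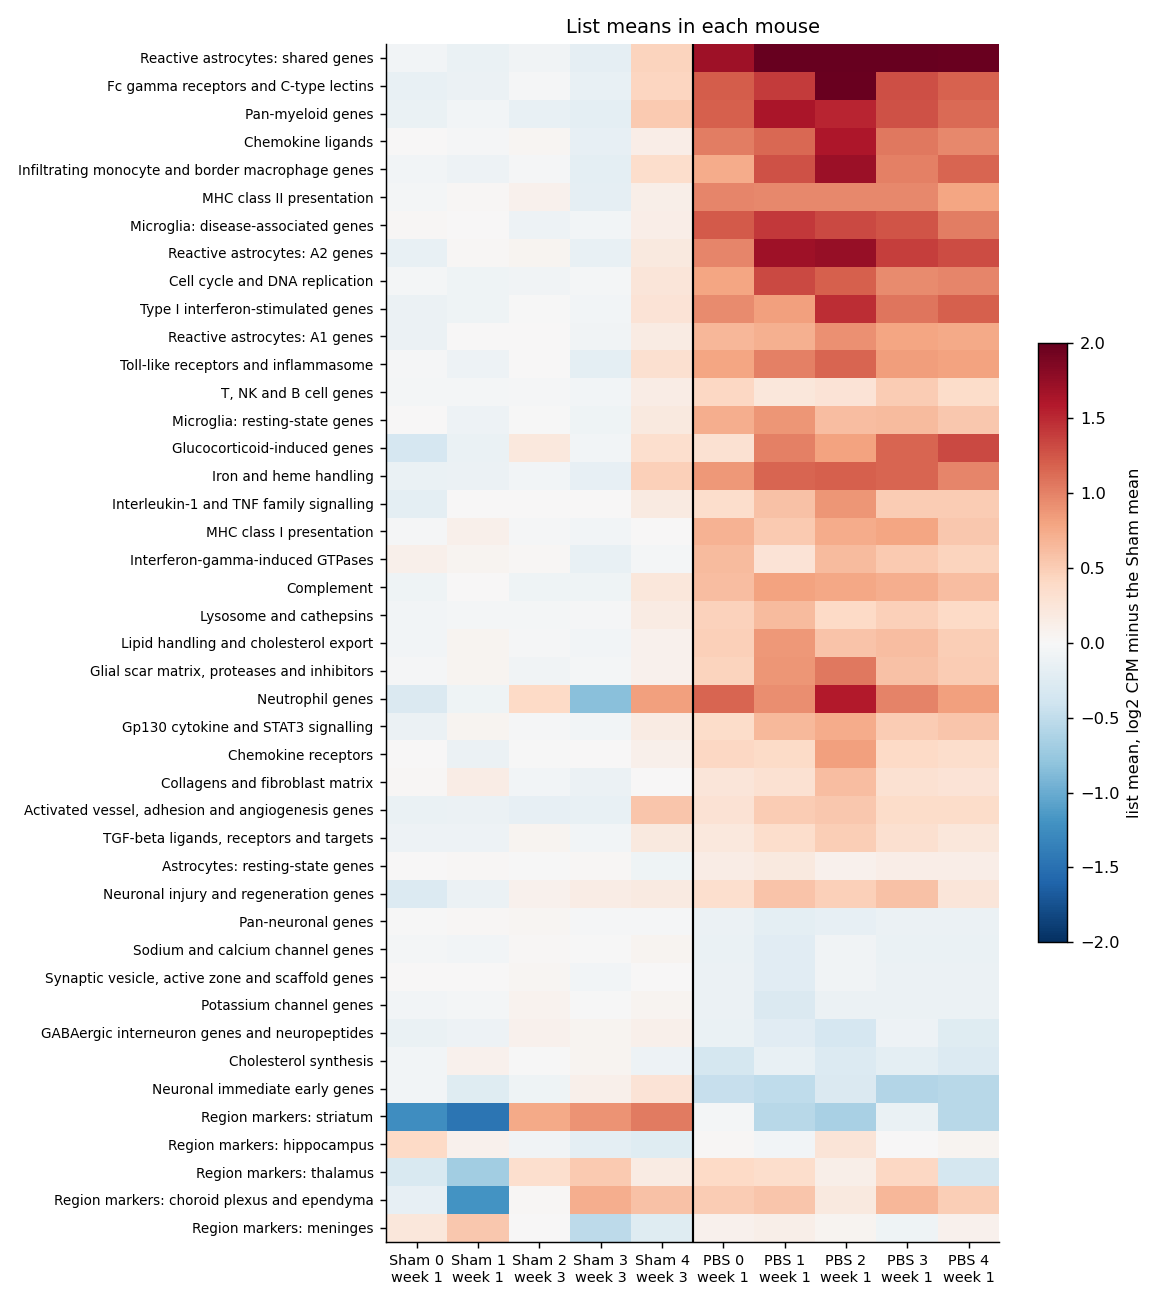
Mean log2 CPM of each gene list in each mouse minus the mean of the 5 Sham mice, red for above and blue for below, with the colours ending at -2 and 2. All PBS columns are red for the myeloid, interferon, astrocyte and cell cycle lists and blue for the immediate early list, Sham mouse 4 is the reddest Sham column for several myeloid lists, and the striatal row splits the Sham mice by week.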

How the data were processed

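The labels list 35 samples, of which 34 had columns in the deposited table, 5 of them Sham and 5 PBS at 1 wpi. The authors trimmed reads with cutadapt 2.4, checked them with FastQC 0.11.8, quantified GENCODE protein-coding transcripts with kallisto 0.46 and used sleuth 0.30, per the labels and methods. The deposited estimated counts per gene were rounded to whole numbers, and the deposited TPM were not tested. A further 63 columns hold the authors' fold changes, p and q values and were not used. Genes were kept by edgeR's filterByExpr, scaled by TMM and fitted with glmQLFit (edgeR 4.0.16, R 4.3.3) over all groups. The pipeline was tested on simulated data.

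The comparison and its 56 gene lists were chosen with earlier results of these data known. Named genes were the 15 with the largest change in each direction among called genes without overlap and with at least 1 CPM in the higher group, the 10 with the smallest adjusted p in each direction, up to 4 of each list, and cell type markers. A few genes that these rules named are counted but not reported here. Lists are described by counts and medians, with no set test. Promoters came from RefSeq, and gene positions from a GENCODE annotation of GRCm38. Alternatives were other scalings, filters, tools and sets of mice.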

Additional observations from a re-analysis of the deposited data

Results flagged for a closer look

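Among 206 groups of 5 mice, each a list mean or the values of a gene, 25 held a mouse farther from the others than Dixon's 95% limit, where chance gives about 1 in 20. Sham mouse 4 accounted for 12 of them, PBS mouse 2 for 7 and PBS mouse 1 for 3. Sham mouse 4 was high, in mean log2 CPM, for pan-myeloid genes (2.52, the other Sham mice up to 1.94), T, NK and B cell genes (-1.91, others up to -2.08), Fc gamma receptors and C-type lectins (0.102, others up to -0.355), interferon-stimulated genes (1.84, others up to 1.56), shared reactive astrocyte genes (2.75, others up to 2.25), lysosomal genes (5.86, others up to 5.67), cell cycle genes (1.77, others up to 1.49), vessel activation genes (2.77, others up to 2.11) and iron and heme genes (3.61, others up to 3.07). It was also high for Egr4 (40.5 CPM), Grn (57.2 CPM) and Ly86 (9.11 CPM, others up to 5.0). PBS mouse 2 was high for chemokine ligands (1.19, other PBS mice up to 0.718), chemokine receptors (1.08, others up to 0.663), Fc gamma receptors and C-type lectins (1.65, others up to 1.07), collagens (4.49, others up to 4.17), Acod1 (8.32 CPM) and Hcar2 (5.11 CPM), and low for respiratory chain genes (7.36, others from 7.54). PBS mouse 1 was low for excitatory neuron genes (6.35, others from 6.52), potassium channel genes (6.07, others from 6.24) and Plcxd2 (112.2 CPM, others from 125.3). Single flags fell on PBS mouse 4 for MHC class II genes (1.75, others from 1.92), PBS mouse 3 for meningeal genes (3.49, others from 3.64) and Sham mouse 3 for Diras2 (257.6 CPM, others from 274.1).

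Of 47 genes with the greatest or most certain changes, 31 differed between PBS mice at 1 wpi and the 4 PBS mice at 3 wpi by edgeR's quasi-likelihood test, 23 higher and 8 lower at 1 wpi, where 4.9% of all genes tested were higher and 0.613% lower. The log2 fold change of 1 wpi over 3 wpi was largest for Clec4d (5.2) and Tgm1 (4.71), followed by Arg1 (3.69), Hcar2 (3.51), Hmox1 (3.49), Msr1 (3.08), Lilr4b (3.04), Ptx3 (2.78), Cxcl10 (2.61), Ccl2 (2.61) and Gm49339 (2.21). It was smaller for Ccl3 (1.95), Uhrf1 (1.86), Lgals3 (1.83), Tlr13 (1.6), Vim (1.57), Ly86 (1.46), Gfap (1.34), Cst7 (1.28), Hspb6 (0.893), Grn (0.892), Cmklr1 (0.829) and C4b (0.69). Genes lower at 1 wpi than at 3 wpi were Mylk3 (-0.547), Gm29695 (-0.54), Arntl (-0.417), Cckbr (-0.369), Diras2 (-0.23), Plcxd2 (-0.196), Amigo1 (-0.171) and Srebf2 (-0.157). The genes were chosen by the comparison with Sham, which shares the PBS mice of 1 wpi.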

How the results depend on the processing

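Of 254 named genes, 199 were called, 0 of these changed direction under any alternative, and 122 stayed called in all of them. The counts were 1475 higher and 936 lower with RLE scaling, 1538 and 1083 with DESeq2, 1419 and 783 without a filter and 1533 and 705 with a strict one. The lower count moved most: to 383 with library size only (1873 higher), 570 with only these 10 mice in the fit (1242 higher), 535 without Sham mouse 4 and PBS mouse 2 (1332 higher, chosen after seeing the data), and from 456 to 900 when single mice were left out (1159 to 1488 higher). A fold minimum of 2 left 407 higher and 7 lower. Against Sham mice of week 1 alone 1055 were higher and 747 lower, of which 919 and 372 were shared with the main calls, and 64 named calls were lost. Against those of week 3 alone 1211 were higher and 738 lower. With the striatal score as a covariate, also chosen after seeing the data, 1646 were higher and 1094 lower.

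With the replicate number as a block and only these mice in the fit, 1099 genes were higher and 524 lower. The numbers did not pair the mice: deviations of same-numbered mice correlated between -0.315 and 0.312. Limits are the 5 mice a group, the mixed collection weeks of the Sham mice, and regional markers that differ between those weeks. With 3 counts at 0.0722 to 0.0975 CPM, genes near that level, such as many chemokines in Sham, have folds of low precision. The causes of these shifts were not tested.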

Other observations

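Genes that share a symbol stem were counted after the values were seen. Of 11 tested Ms4a genes, which encode membrane proteins of leukocytes, 6 rose, among them Ms4a7, a marker of macrophages other than microglia, at 0.172, 0.123, 0.134, 0.247 and 0.556 CPM in Sham and 0.697, 1.11, 1.03, 0.754 and 0.674 CPM in PBS mice (log2FC 1.8 ± 0.34, adjusted p = 0.000247), and Ms4a4a (log2FC 2.16, adjusted p = 0.00197). The PBS mice were above the Sham mice in both. Of 23 tested genes with the stem Dusp, which include phosphatases that switch off MAP kinases, 6 fell (26.1%, against 5.03% of all genes tested) and 0 rose. Dusp6, which acts on ERK, was at 67.1, 60, 64.5, 66 and 77 CPM in Sham and 55, 48.8, 52.1, 47.2 and 46.5 CPM in PBS mice (log2FC -0.42 ± 0.083, adjusted p = 0.000485), without overlap. Of 18 genes with the stem Mapk, not all of them kinases, 5 fell (27.8%), including the stress kinase genes Mapk10 (log2FC -0.18, adjusted p = 0.000742) and Mapk8 (log2FC -0.15, adjusted p = 0.00126), and 1 rose, Mapk3 (log2FC 0.16, adjusted p = 0.0149). Of symbols with the stem Rps 9 of 42 (21.4%) were called higher and 1 lower, and of those with the stem Rpl 2 of 49 (4.08%) were higher, against 8.73% of all genes tested, with small folds such as that of the ribosomal protein gene Rps4x (log2FC 0.21, adjusted p = 0.000742).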
